A study of Homo sapiens with 6 samples.

Results

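The genes described here encode the nuclear subunits and close partners of 3 machines of the mitochondrial inner membrane, complex III, complex IV and ATP synthase. They were taken from the deposited expression table by symbol, as CYC1 and symbols starting with UQCR for complex III, COX followed by a digit from 4 to 8 for complex IV, and ATP5 for ATP synthase, and were selected on level by having at least 1 expression unit in at least 3 of the 6 libraries. The rule gave 41 of 16536 genes, with 10 in complex III, 13 in complex IV and 18 in ATP synthase, and all 41 rows with such symbols passed the threshold. COX7A1, with 3 libraries at 1 unit or more, and COX6B2, with 4, passed it by the least. RNA came from SCC4, an established line of human tongue squamous carcinoma cells. Sphere cells (3 libraries) were obtained from the line by growth in suspension, a culture that the submitters used to isolate cancer stem cells, and parental cells (3 libraries) grew attached. No treatment or genetic change of either group is given, and both groups share the single cell line. Nothing in the labels ties the replicates to separate cultures, so the p-values reflect the spread among these 6 libraries alone, and that spread may be technical.

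Complex III, the cytochrome bc1 complex, passes electrons from ubiquinol to cytochrome c and pumps protons. Complex IV, cytochrome c oxidase, hands those electrons to oxygen and pumps further protons, and ATP synthase lets protons flow back through a rotor of c subunits to make ATP. Each complex combines subunits encoded in mitochondrial DNA with nuclear subunits that must be imported. Several nuclear subunits exist as tissue isoforms, with muscle and ubiquitous forms of COX6A and COX7A as textbook cases.

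Squamous epithelial markers were present, with 10 of 10 listed genes measured and summed levels of 26390 to 27890 units in sphere libraries and 7203 to 7806 units in parental libraries. The sums do not describe each gene, as 6 of the 10 were called higher in sphere cells, 3 lower and 1 neither in the limma fit described below. Column totals were 1007357 to 1134102 units in sphere libraries and 885257.9 to 1007523 units in parental libraries. They do not give the number of reads, so depth is unknown and counting error could not be attached to any value. Units are called TPM-like here after the name the authors gave the table. Whether they were divided by transcript length could not be checked, and low values of COX6B2, COX7A1 and UQCRHL, whose coding lengths differ, lay near the same steps of about 1 unit, so levels are compared between libraries and not between genes. Listed markers of other cell types are given as sums, to be compared between libraries and not between lists. Fibroblast markers (3 of 8 with a row) summed to 25.2 to 30.2 units in sphere and 7.5 to 9.8 units in parental libraries, leukocyte markers (3 of 7) to 30.0 to 30.7 and 13.2 to 16.1 units, endothelial markers (1 of 4) to 2.3 to 4.0 and 3.8 to 5.4 units, and muscle markers (5 of 8) to 81.7 to 96.3 and 25.6 to 89.6 units. Transcripts of red-cell precursors stood out in 3 libraries. Of 20 listed erythroid markers 10 had a row in the table, and these summed to 1.3, 1268.0 and 0.3 units in sphere replicates 1 to 3, against 0.0, 1909.5 and 1323.2 units in parental replicates 1 to 3. Each of the 10, among them HBA1, HBA2, HBG1, HBG2, ALAS2 and GATA1, was below 0.5 units in sphere replicates 1 and 3 and parental replicate 1.

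UQCRC2 and UQCRH of complex III, COX7A2 and COX6B1 of complex IV and ATP5PF of ATP synthase were higher in sphere cells, and COX7A2L, a factor that links complexes III and IV into supercomplexes, was lower. These 6 members kept their call under each of the 18 alternatives tried, and the other calls depended on at least 1 of them. In limma fits of log2(value + 1) over all 15034 tested genes, with an adjusted p threshold of 0.05, 13 of the 41 members rose, 1 fell and 27 were not called. Among all tested genes 25.8% were called higher and 22.9% lower, so the share of members that rose was near the background and the share that fell was below it. The median log2 fold change was 0.16 over the 41 members and 0.04 over all tested genes. These values describe bulk RNA, in which fewer cells of a type and less RNA per cell cannot be told apart. The size of the count depended on scaling. With every library rescaled to the same total, 5 members rose and 2 fell, against 15.2% and 25.1% of all tested genes, and the median of all genes moved by -0.15. Without the 3 libraries that held erythroid transcripts 21 members rose and 1 fell, against 23.3% and 17% of all tested genes, where the lone parental library is assumed to vary like the sphere libraries.

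**Figure D1:**
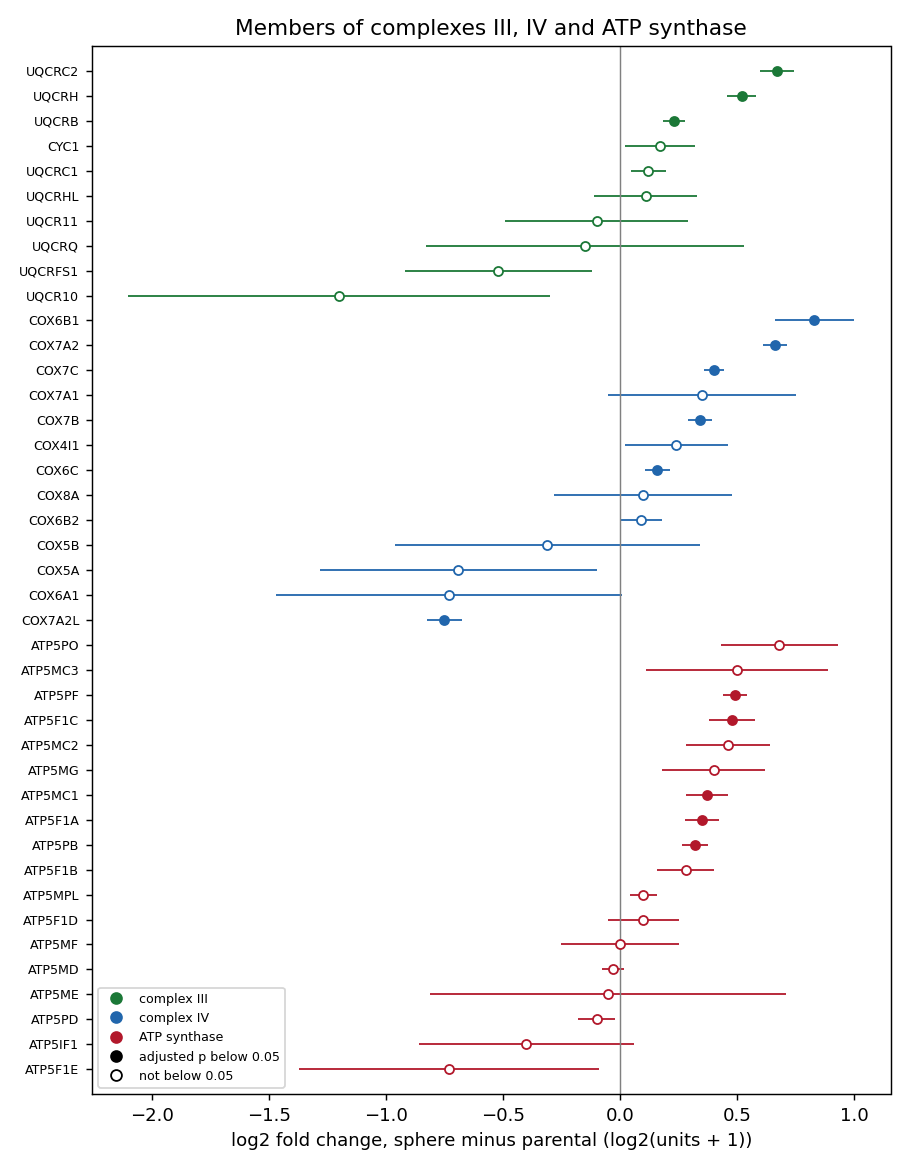
Log2 fold change of each of the 41 members, sphere minus parental on the log2(units + 1) scale, with its standard error from limma (n = 3 libraries a group), ordered by size within each complex. Filled points had an adjusted p below 0.05 and include 13 members above 0 and COX7A2L at -0.75, while the widest bars, for UQCR10 and ATP5ME among others, belong to members whose replicates spread apart.

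The members were divided into a tight and a wide class by a cut on a continuous spread. A member was taken to stand apart in single libraries when its mean was at least 5 units and the highest value was at least 1.5 times the lowest within a group, and 18 members met this, against 12.3% of all tested genes with such a mean. Of the 38 members with that mean, the 20 others stayed within 1.3-fold among sphere libraries and 1.41-fold among parental libraries. All but COX6B1 of the 14 called members were in the tight class. The limma test weighs the same spread within groups, so call and class are not independent and their match is no separate result. Sphere replicate 2 was highest in all 12 members with a wide sphere group. Parental replicate 2 was highest in 9 and parental replicate 3 in 7 of the 16 members with a wide parental group. These are the libraries with erythroid transcripts, and the part of those transcripts in the spread was not tested.

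**Figure D2:**
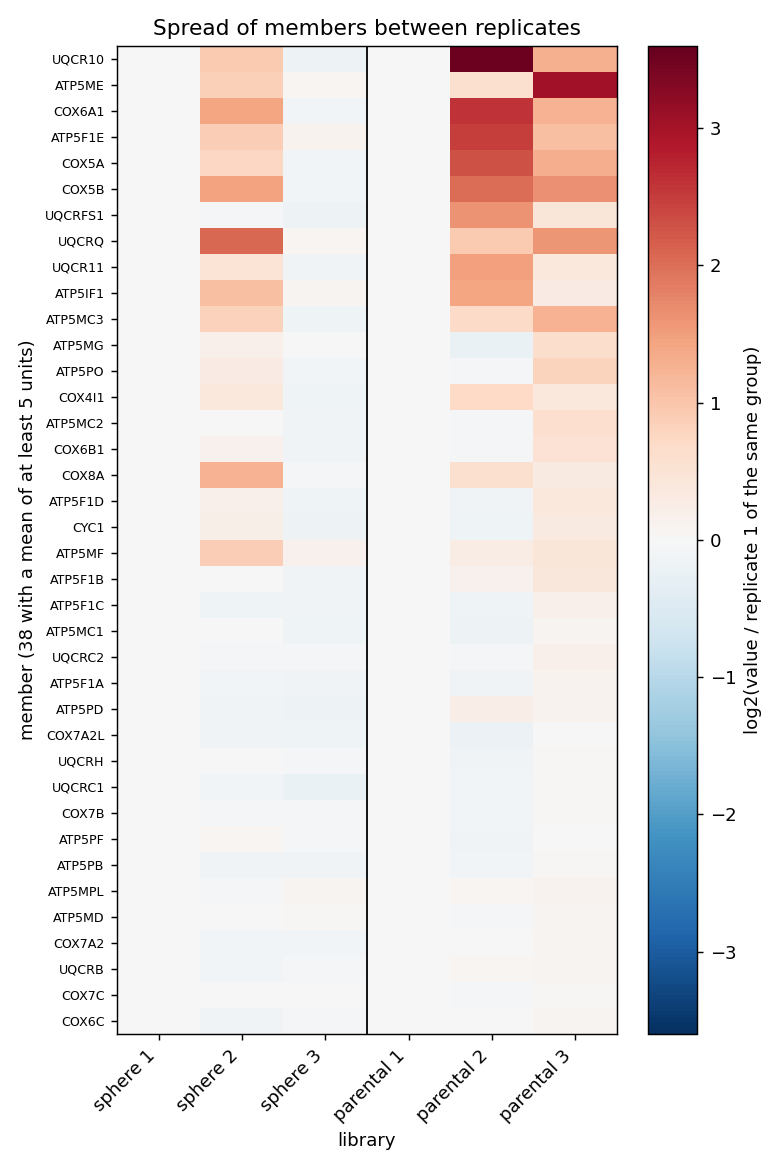
Heat map of the 38 members with a mean of at least 5 units, showing log2 of each value over replicate 1 of the same group, with sphere libraries left and parental libraries right of the line. Members are ordered by their parental spread, and the red cells at the top lie in sphere replicate 2 and parental replicates 2 and 3, the largest being UQCR10 at 11.6 times parental replicate 1.

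Promoters are shown for 5 members that carry the contrast between these classes, COX7A2 and COX7A2L because they moved in opposite directions, and COX6A1, COX5B and UQCR10 because they were wide. Windows of 250 bases before to 50 after the start were taken from RefSeq (GRCh38.p14) and matched 32 of the 41 members. Nuclear respiratory genes are known targets of the factors NRF1, GABP (an ETS factor) and YY1, so 3 motifs were searched on both strands, the NRF1 motif, CCGGAAG for ETS factors and AANATGGC for YY1. NRF1 letters were in the windows of 8 members (25%), against 5.78% of all 35116 windows and 13.1% of tested genes that had a window. For the ETS letters the counts were 14 members (43.8%), against 10.3% of windows and 21.7% of tested genes. YY1 letters were in 12 members (37.5%), against 6.58% of windows and 12.1% of tested genes. Matches to different motifs overlapped in 0 of the 38 member windows, and 24 of the 32 members had at least 1 match. A match describes letters and shows no binding. Capitals mark the matches in the lines that follow, written 5′ to 3′ on the gene's strand. They are from chr6:75243752-75244051 (minus strand, COX7A2), chr2:42361168-42361467 (minus, COX7A2L), chr12:120437863-120438162 (plus, COX6A1), chr2:97645812-97646111 (plus, COX5B) and chr22:29767119-29767418 (plus, UQCR10). For COX7A2 and COX7A2L, which have 2 windows each, the downstream start is printed.
COX7A2: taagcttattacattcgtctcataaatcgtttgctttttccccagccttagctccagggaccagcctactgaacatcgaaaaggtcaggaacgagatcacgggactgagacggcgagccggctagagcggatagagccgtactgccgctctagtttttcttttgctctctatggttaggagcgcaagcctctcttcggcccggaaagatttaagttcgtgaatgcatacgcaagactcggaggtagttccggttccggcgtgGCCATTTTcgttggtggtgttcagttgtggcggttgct
COX7A2L: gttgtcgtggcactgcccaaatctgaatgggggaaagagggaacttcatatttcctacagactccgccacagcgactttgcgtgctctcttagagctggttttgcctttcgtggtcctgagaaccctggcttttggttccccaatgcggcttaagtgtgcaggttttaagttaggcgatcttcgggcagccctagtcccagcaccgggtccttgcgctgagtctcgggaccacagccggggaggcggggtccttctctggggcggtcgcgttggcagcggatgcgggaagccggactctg
COX6A1: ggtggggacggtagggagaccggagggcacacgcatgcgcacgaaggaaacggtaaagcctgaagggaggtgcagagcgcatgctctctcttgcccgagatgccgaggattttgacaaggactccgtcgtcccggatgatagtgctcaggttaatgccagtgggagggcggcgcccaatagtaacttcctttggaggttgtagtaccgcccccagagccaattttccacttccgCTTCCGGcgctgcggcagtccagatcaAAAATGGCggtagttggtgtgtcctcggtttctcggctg
COX5B: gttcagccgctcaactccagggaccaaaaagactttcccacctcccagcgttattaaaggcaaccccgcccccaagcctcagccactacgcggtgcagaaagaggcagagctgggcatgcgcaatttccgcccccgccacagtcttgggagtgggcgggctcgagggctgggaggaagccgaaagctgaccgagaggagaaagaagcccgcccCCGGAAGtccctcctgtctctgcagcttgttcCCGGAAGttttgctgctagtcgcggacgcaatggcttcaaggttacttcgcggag
UQCR10: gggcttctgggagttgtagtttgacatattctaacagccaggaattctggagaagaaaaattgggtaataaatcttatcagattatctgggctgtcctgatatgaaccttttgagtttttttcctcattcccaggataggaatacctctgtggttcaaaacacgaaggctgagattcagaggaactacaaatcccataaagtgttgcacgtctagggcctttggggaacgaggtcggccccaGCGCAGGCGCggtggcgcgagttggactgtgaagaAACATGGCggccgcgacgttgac
COX7A2 held YY1 letters just after its start, COX6A1 ETS and YY1 letters, COX5B ETS letters at 2 places, and UQCR10 NRF1 and YY1 letters. The printed COX7A2L window held none of the 3 motifs, and its upstream window held YY1 letters once. Tight and wide members therefore both carried matches.

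In complex III, 3 of 10 members rose and 0 fell. The median log2 fold change was 0.11. UQCRC2 (ENSG00000140740), a core protein of the matrix side, was at 374, 359 and 357 units in sphere replicates 1 to 3, against 222, 213 and 252 units in parental replicates 1 to 3. UQCRH (ENSG00000173660), the hinge protein that helps dock cytochrome c, was at 747, 747 and 709 units in sphere libraries, against 524, 478 and 538 units in parental libraries. Both groups were compact and did not overlap, with log2 fold changes of 0.67 ± 0.072 for UQCRC2 and 0.52 ± 0.062 for UQCRH (SE, limma adjusted p = 0.000669 and 0.00103). Lack of overlap was common, with sphere libraries all higher in 37.6% of tested genes and all lower in 27.5%, so it does not single out a member here or below. UQCRB, a small subunit near the ubiquinone site, was at 62.0, 58.0 and 58.5 units in sphere libraries, against 48.7, 51.4 and 52.0 units in parental libraries. Its rise was small (log2 fold change 0.23 ± 0.046, SE, limma adjusted p = 0.00869) and was not called after rescaling to the same total (log2 fold change 0.07, limma adjusted p = 0.519). UQCRC1, the partner core protein, was at 261, 244 and 222 units in sphere libraries, against 226, 210 and 234 units in parental libraries, and did not pass the test. The paired core proteins thus had log2 fold changes of 0.67 and 0.12, a difference that was not tested.

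The redox subunits of complex III were not called. CYC1, the heme-bearing cytochrome c1, was at 208, 240 and 185 units in sphere libraries, against 178, 161 and 224 units in parental libraries. UQCRFS1, the Rieske iron-sulfur protein, was at 108, 104 and 94.8 units in sphere libraries, against 91.4, 282 and 124 units in parental libraries. The sphere libraries were close together, while parental replicate 2 was 3.09 times parental replicate 1. Parental replicate 1 lay below every sphere library and parental replicates 2 and 3 lay above, so the groups overlapped. Of the small accessory subunits, UQCR10 (ENSG00000184076) was at 79.7, 154 and 69.6 units in sphere libraries, against 72.3, 835 and 175 units in parental libraries. Its mean was lower in sphere cells (101 ± 46.4 units, against 361 ± 414 units in parental cells, SD, n = 3 each), yet the log2 fold change of -1.20 ± 0.90 (SE) was not called (limma adjusted p = 0.314). It was 0.04 when sphere replicate 2 and parental replicates 2 and 3 were left out. UQCRQ was at 72.6, 305 and 75.7 units in sphere libraries, against 73.6, 141 and 222 units in parental libraries. Sphere replicates 1 and 3 and parental replicate 1 thus lay within 72.6 to 75.7 units, and the other libraries were higher. UQCR11 was at 153, 216 and 141 units in sphere libraries, against 117, 324 and 152 units in parental libraries. It was not called either, but with those 3 libraries left out it was called higher, at a log2 fold change of 0.32 (limma adjusted p = 0.0426). UQCRHL, a near-copy of UQCRH, was at 1.18 to 2.07 units in sphere libraries and 0.926 to 2.02 units in parental libraries, and reads may be shared between the copies.

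In complex IV, 5 of 13 members rose and 1 fell. The median log2 fold change was 0.16. COX7A2 (ENSG00000112695), the ubiquitous isoform of subunit VIIa, was at 414, 386 and 385 units in sphere libraries, against 245, 243 and 260 units in parental libraries. COX7A2L (ENSG00000115944), its relative that joins complex III to complex IV, was at 89.9, 82.9 and 80.7 units in sphere libraries, against 150, 129 and 148 units in parental libraries. Neither gene's groups overlapped, and they moved in opposite directions, with log2 fold changes of 0.66 ± 0.051 for COX7A2 and -0.75 ± 0.075 for COX7A2L (SE, limma adjusted p = 0.000206 and 0.000504). The ratio of COX7A2L to COX7A2 was 0.217, 0.215 and 0.209 in sphere libraries, against 0.613, 0.531 and 0.571 in parental libraries. The size of this ratio depends on how length was treated, while the fold by which it differs between libraries does not. COX7A1, the muscle isoform, was at 1.03, 0.0214 and 1.01 units in sphere libraries, against 0, 1.01 and 0 units in parental libraries. It was thus near 1 unit in 3 libraries and near or at 0 in the others, and it was not called (limma adjusted p = 0.493). It is among the 21 members called higher without the 3 libraries with erythroid transcripts (log2 fold change 1.01, limma adjusted p = 0.00242), a call that rests on about 1 unit in each of 2 sphere libraries against 0 in the lone parental library.

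COX6B1 (ENSG00000126267), which bridges the monomers of the complex IV dimer, had the largest positive log2 fold change of the 41 members. It was at 469, 526 and 429 units in sphere libraries, against 238, 229 and 343 units in parental libraries, and its log2 fold change was 0.83 ± 0.17 (SE, limma adjusted p = 0.00927). Parental replicate 3 was the highest parental library and still lay below every sphere library. COX6B2, the testis isoform, was at 1.04, 1.14 and 1.01 units in sphere libraries, against 0.873, 1.01 and 0.941 units in parental libraries. The lowest sphere and the highest parental library both round to 1.01 units, and it was not called (limma adjusted p = 0.44). The small subunits COX7C and COX7B rose with little spread. COX7C was at 382, 388 and 375 units in sphere libraries, against 291, 280 and 299 units in parental libraries (log2 fold change 0.40 ± 0.043, SE, limma adjusted p = 0.000653). COX7B was at 120, 117 and 114 units in sphere libraries, against 93.1, 86.7 and 96.5 units in parental libraries (log2 fold change 0.34 ± 0.051, SE, limma adjusted p = 0.0024). Rescaling to the same total ended both calls, at log2 fold changes of 0.24 for COX7C (limma adjusted p = 0.0728) and 0.18 for COX7B (0.195). COX6C was at 297, 272 and 289 units in sphere libraries, against 250, 250 and 266 units in parental libraries, and its small rise (log2 fold change 0.16 ± 0.052, SE, limma adjusted p = 0.0433) had the highest adjusted p of the called members. The call was lost when sphere replicate 1 (limma adjusted p = 0.131) or 3 (0.126) was left out, and likewise for parental replicate 1 (0.122) or 2 (0.098). After rescaling to the same total its log2 fold change was 0.00 (limma adjusted p = 0.999).

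The remaining complex IV subunits stood apart in single libraries. COX6A1 (ENSG00000111775), the ubiquitous isoform of subunit VIa, was at 788, 2090 and 729 units in sphere libraries, against 727, 4379 and 1726 units in parental libraries. Sphere replicates 1 and 3 were at the level of parental replicate 1, and the other libraries were 2.76 times (sphere replicate 2 over the mean of sphere replicates 1 and 3), 6.02 times (parental replicate 2 over 1) and 2.37 times (parental replicate 3 over 1) as high. COX5B (ENSG00000135940), a zinc-binding subunit of the matrix side, was at 370, 1003 and 345 units in sphere libraries, against 269, 1085 and 834 units in parental libraries. COX5A, its matrix-side neighbour, was at 276, 459 and 260 units in sphere libraries, against 225, 1108 and 560 units in parental libraries. For COX5B and COX5A the same libraries were high, and the groups overlapped. The 3 genes had log2 fold changes of -0.73 ± 0.74 (COX6A1), -0.31 ± 0.65 (COX5B) and -0.69 ± 0.59 (COX5A) (SE), none of them called (limma adjusted p = 0.444, 0.717 and 0.377). Leaving out sphere replicate 2 and parental replicates 2 and 3 gave 0.06 for COX6A1, 0.41 for COX5B and 0.25 for COX5A, and COX5B was then called higher (limma adjusted p = 0.0239), a change of sign.

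COX8A, the ubiquitous form of the smallest subunit, was at 1404, 3365 and 1362 units in sphere libraries, against 1406, 2107 and 1747 units in parental libraries. Here sphere replicate 2 was the highest of all 6 libraries, and the other sphere libraries lay close to parental replicate 1. COX4I1, the main isoform of the regulatory subunit IV, was at 272, 353 and 243 units in sphere libraries, against 188, 309 and 243 units in parental libraries. It was called higher without the 3 libraries (log2 fold change 0.45, limma adjusted p = 0.0318) and not in the fit of all 6 (0.24, limma adjusted p = 0.403).

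**Figure D3:**
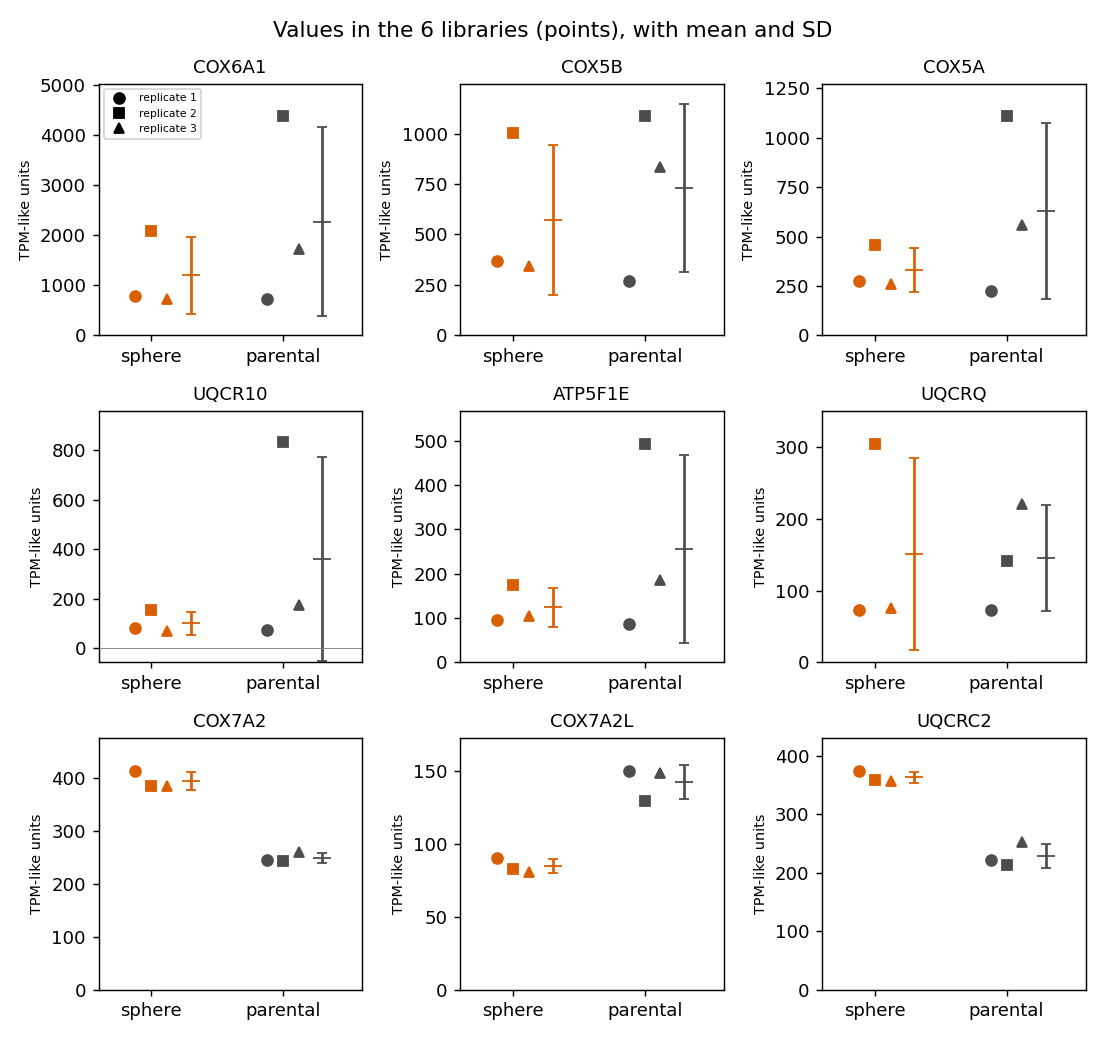
Values of 9 members in TPM-like units in each library, sphere left and parental right in each panel, with points by replicate and a bar for the mean and SD over 3 libraries. In COX6A1, COX5B, COX5A, UQCR10, ATP5F1E and UQCRQ the high points are sphere replicate 2 and parental replicates 2 and 3, while COX7A2 and UQCRC2 are higher and COX7A2L lower in all sphere libraries. The SD bar of UQCR10 in parental cells reaches below 0 because its spread exceeds its mean.

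In ATP synthase, 5 of 18 members rose and 0 fell. The median log2 fold change was 0.30, the highest of the 3 complexes. Only ATP5PF of the 5 was still called after rescaling to the same total, where ATP5PB (log2 fold change 0.16, limma adjusted p = 0.281), ATP5F1C (0.32, 0.14), ATP5F1A (0.19, 0.252) and ATP5MC1 (0.21, 0.223) lost the call. ATP5PF (ENSG00000154723), coupling factor 6 of the peripheral stalk, was at 133, 140 and 130 units in sphere libraries, against 97.5, 89.8 and 98.3 units in parental libraries. ATP5PB, subunit b of the same stalk, was at 286, 264 and 262 units in sphere libraries, against 219, 205 and 224 units in parental libraries. Their groups did not overlap, with log2 fold changes of 0.49 ± 0.052 for ATP5PF and 0.32 ± 0.057 for ATP5PB (SE, limma adjusted p = 0.00061 and 0.00475). ATP5F1C, subunit gamma of the central shaft, was at 375, 339 and 341 units in sphere libraries, against 249, 223 and 284 units in parental libraries. ATP5F1A, subunit alpha, was at 194, 182 and 178 units in sphere libraries, against 144, 133 and 157 units in parental libraries. Both rose, with log2 fold changes of 0.48 ± 0.098 for ATP5F1C and 0.35 ± 0.071 for ATP5F1A (SE, limma adjusted p = 0.00824 and 0.00838). ATP5F1B (ENSG00000110955), the catalytic subunit beta, was at 1577, 1553 and 1431 units in sphere libraries, against 1098, 1223 and 1458 units in parental libraries. Parental replicate 3 lay above the lowest sphere library and it was not called (log2 fold change 0.28, limma adjusted p = 0.0973), but was called without parental replicate 3 (0.39, 0.0168), and also with sphere replicate 2 and parental replicates 2 and 3 all left out (0.45, 0.0372).

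The rotor ring is built from subunit c, for which 3 genes encode the same mature protein. ATP5MC1 was at 112, 113 and 101 units in sphere libraries, against 85.1, 74.6 and 91.8 units in parental libraries. ATP5MC2 was at 132, 133 and 121 units in sphere libraries, against 82.2, 78.7 and 126 units in parental libraries. ATP5MC3 was at 143, 253 and 128 units in sphere libraries, against 74.7, 121 and 179 units in parental libraries. Only ATP5MC1 of these was called (log2 fold change 0.37 ± 0.089, SE, limma adjusted p = 0.0156), and it lost the call without sphere replicate 1 (0.0567) or 2 (0.0609). The log2 fold changes of ATP5MC2 and ATP5MC3 were larger, 0.46 ± 0.18 and 0.50 ± 0.39 (SE), with wider errors (limma adjusted p = 0.0876 and 0.335). With sphere replicate 2 and parental replicates 2 and 3 left out, all 3 log2 fold changes stayed positive. They were 0.31 for ATP5MC1, 0.62 for ATP5MC2 and 0.85 for ATP5MC3, against a lone parental library.

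Parental replicate 3 was the highest parental library in every ATP synthase gene but ATP5F1E, ATP5IF1 and ATP5PD. In tight members the margin could be small, as in ATP5PF (98.3 units, against 97.5 units in parental replicate 1). The order was not particular to ATP synthase. It also held in UQCRC2, UQCRH, UQCRB, UQCRC1 and CYC1 of complex III and in COX7A2, COX7C, COX7B, COX6B1 and COX6C of complex IV. Its share over all tested genes was not computed. ATP5PO, the OSCP subunit that ties the stalk to the head, was at 176, 218 and 163 units in sphere libraries, against 96.3, 92.8 and 167 units in parental libraries. ATP5MG, subunit g of the membrane part, was at 87.9, 99.8 and 86.7 units in sphere libraries, against 62.7, 53.5 and 97.6 units in parental libraries. ATP5ME, subunit e, was at 13.5, 24.6 and 14.1 units in sphere libraries, against 7.43, 11.1 and 60.2 units in parental libraries, where replicate 3 was 8.1 times replicate 1. Without parental replicate 3, 9 ATP synthase members rose in place of 5, ATP5PO (log2 fold change 0.95, limma adjusted p = 0.00302), ATP5MC2 (0.67, 0.000757), ATP5MG (0.65, 0.0044) and ATP5F1B being added, and 26.6% of all tested genes were then called higher and 22% lower. Without the 3 libraries with erythroid transcripts ATP5ME was called higher as well (log2 fold change 0.81, limma adjusted p = 0.0115), against -0.05 ± 0.76 (SE) in the fit of all 6.

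ATP5F1E and ATP5IF1 had the parental replicate 2 pattern of COX6A1. ATP5F1E, subunit epsilon, was at 95.2, 175 and 104 units in sphere libraries, against 87.5, 493 and 185 units in parental libraries. ATP5IF1, the inhibitor that binds the head when the membrane potential falls, was at 105, 220 and 111 units in sphere libraries, against 122, 329 and 148 units in parental libraries. Neither was called, with log2 fold changes of -0.73 ± 0.64 for ATP5F1E and -0.40 ± 0.46 for ATP5IF1 (SE, limma adjusted p = 0.385 and 0.497). ATP5MF, subunit f, was at 221, 408 and 247 units in sphere libraries, against 240, 287 and 322 units in parental libraries, with sphere replicate 2 highest. Another group had compact replicates and was not called. ATP5MD, the small dimer-associated subunit also named ATP5MK, was at 223 to 228 units in sphere libraries and 221 to 241 units in parental libraries. ATP5MPL, the proteolipid also named ATP5MJ, was at 84.1 to 93.8 units in sphere libraries and 78.8 to 86.1 units in parental libraries. ATP5PD, subunit d of the stalk, was at 96.8 to 111 units in sphere libraries and 102 to 120 units in parental libraries, and ATP5F1D, subunit delta, at 103 to 131 units and 93.8 to 133 units. ATP5PD was called lower after rescaling to the same total (log2 fold change -0.26, limma adjusted p = 0.0381), and was at -0.10 ± 0.078 (SE) as deposited. Subunits of the same stalk thus had log2 fold changes from -0.10 in ATP5PD to 0.68 in ATP5PO.

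**Figure D4:**
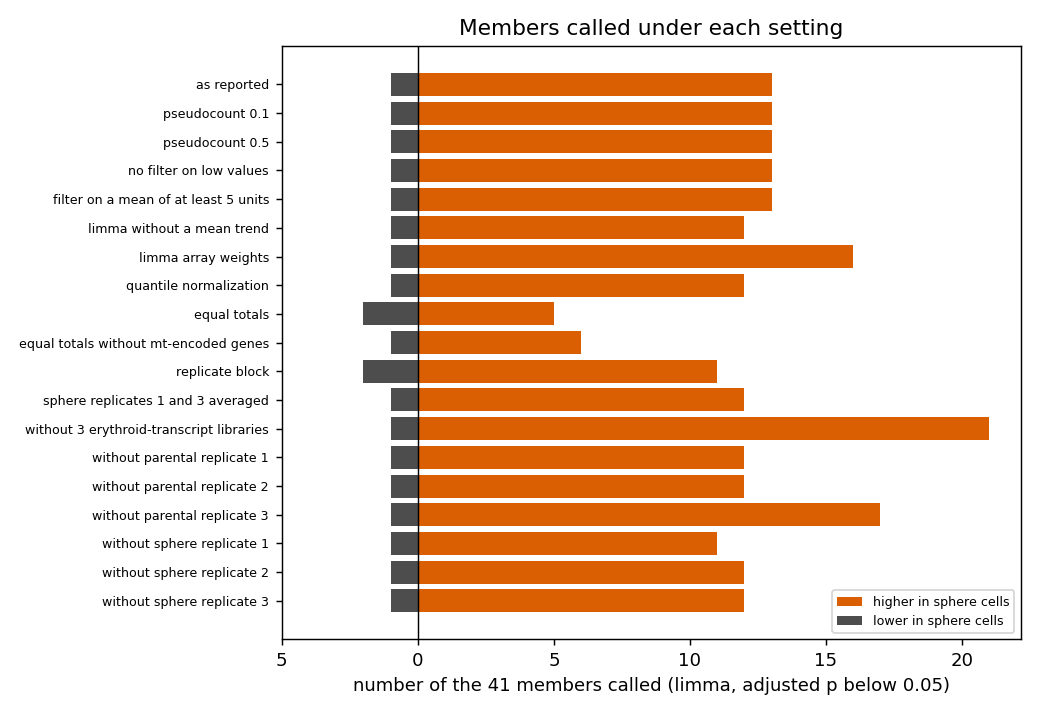
Number of the 41 members called higher (right) and lower (left) in sphere cells at a limma adjusted p below 0.05, in the reported fit and under each alternative. The count called higher ran from 5, with every library rescaled to the same total, to 21, without the 3 libraries with erythroid transcripts, and COX7A2L was called lower in every setting shown.

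Counts for the other respiratory complexes were set beside these members. Of 37 nuclear subunits of complex I, 9 rose and 0 fell, against 25.8% and 22.9% of all tested genes. Their median log2 fold change was 0.05, and the share that rose was near the background. In single libraries 20 of the 37 stood apart, as did 18 of the 38 members with a mean of at least 5 units. With every library rescaled to the same total, 3 rose and 1 fell, against 15.2% and 25.1% of all tested genes. Of 4 complex II subunits 3 rose, of which SDHD lost the call after rescaling. SDHA, which carries the flavin, averaged 168 ± 7.70 units in sphere cells and 96.2 ± 6.68 units in parental cells (SD, n = 3 each, limma adjusted p = 0.000235). The 6 mitochondrially encoded subunits of complexes III and IV and ATP synthase had a median log2 fold change of 0.41, and 0 were called, although MT-ATP6 was called higher after rescaling to the same total, and MT-ATP6 and MT-CO2 after rescaling to the total without mitochondrially encoded genes. MT-CO2, a copper-bearing core subunit of complex IV, was at 41684, 40039 and 40149 units in sphere libraries, against 27404, 26569 and 24165 units in parental libraries (limma adjusted p = 0.0702). MT-ATP8 was at 2941, 7964 and 7540 units in sphere libraries, against 5173, 4961 and 4985 units in parental libraries, so that sphere replicate 1 was the lowest of all. After quantile normalization the median of these 6 genes was -0.07. That method gives every library the same set of values, so it largely removes a shift shared by the highest genes and cannot test it. Mitochondrially encoded genes took 18.6% to 20.3% of sphere totals and 15.4% to 16.7% of parental totals.

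Partners of the complexes moved in both directions, as did all tested genes, of which 25.8% were called higher and 22.9% lower. CYCS, the cytochrome c that shuttles electrons between complexes III and IV, was at 641, 597 and 598 units in sphere libraries, against 683, 652 and 682 units in parental libraries, and was not called (log2 fold change -0.14, limma adjusted p = 0.078). Of 9 complex III assembly factors, UQCC1 rose (log2 fold change 0.50, limma adjusted p = 0.00104) and TTC19 fell (-0.45, 0.000551). Of 27 tested complex IV assembly factors, 4 rose and 2 fell, both below those shares. LRPPRC, which stabilises mitochondrial mRNAs, and the assembly factors COA7 and COX15 rose by log2 values of 0.26, 0.33 and 0.18 (limma adjusted p = 0.0033, 0.00398 and 0.0114). None of the 4 was called after rescaling to the same total, while COA8 and COX19 were called lower there too. Without the 3 libraries with erythroid transcripts COA8, COX15, COA1 and COA7 lost their calls. Of 5 ATP synthase assembly factors 0 were called. HIGD1A, a small inner membrane protein that binds complexes III and IV, averaged 56.4 ± 1.31 units in sphere cells and 75.4 ± 7.39 units in parental cells (SD, n = 3 each), and fell (limma adjusted p = 0.00548) also after rescaling. NDUFA4, now counted as a complex IV subunit, was at 313 to 329 units in sphere libraries and 285 to 315 units in parental libraries and was not called, while its paralog NDUFA4L2 rose (log2 fold change 0.85, limma adjusted p = 0.0104) but not after rescaling. Of 8 cristae genes, the MICOS core gene IMMT rose (0.34, limma adjusted p = 0.00335) and APOOL fell (-0.36, 0.00239). APOOL lost its call without the 3 libraries with erythroid transcripts, and IMMT lost it after rescaling.

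Among 11 regulators of respiratory genes, 5 rose and 2 fell, against 25.8% and 22.9% of all tested genes. After rescaling to the same total 3 rose and 2 fell, GABPA and ESRRA losing their calls, and NRF1 lost its call when mitochondrially encoded genes were left out of the total. PPARGC1A, the coactivator PGC-1 alpha that drives mitochondrial gene programmes, was at 9.31, 9.12 and 10.1 units in sphere libraries, against 0.857, 2.01 and 0.933 units in parental libraries. Its relative PPARGC1B was at 4.14, 4.56 and 5.04 units in sphere libraries, against 1.74, 2.02 and 2.85 units in parental libraries. Groups did not overlap for either, and the log2 fold changes were 2.25 ± 0.20 for PPARGC1A and 0.81 ± 0.15 for PPARGC1B (SE, limma adjusted p = 0.000306 and 0.00545). The parental values of both were low and lay near steps of about 1 unit. PPARGC1A also met the rule for standing apart in single libraries. GABPB1, a partner subunit of GABP, fell (-0.44, limma adjusted p = 0.00288). NRF1, whose motif was searched above, averaged 12.7 ± 0.378 units in sphere cells and 16.0 ± 1.63 units in parental cells (SD, n = 3 each) and fell (limma adjusted p = 0.0233). NRF1 and GABPB1 were not called without the 3 libraries with erythroid transcripts.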

How the data were processed

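Per the labels' protocols, total RNA of 3 sphere and 3 parental SCC4 libraries was sequenced as short single-end reads. HISAT and Bowtie2 (no versions) and the mouse build GRCm38.p6 appear in the submitters' processing notes, although the identifiers are human. For the table itself, quantifier and build are unstated there and in the labels. The deposited values are a normalised signal, named TPM by the authors although column totals differ, and length scaling could not be checked, so they were not treated as counts.

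Here log2(value + 1) was fitted with limma 3.58.1 in R 4.3.3 (2 groups, mean trend, two-sided, Benjamini-Hochberg adjustment over 15034 genes with at least 1 unit in at least 3 libraries). Fold changes on this scale understate those of low genes. The script was tested on simulated data, and the fit was repeated under 18 alternatives. All members were named, and up to 3 called genes of each partner list by smallest p. CYCS, NDUFA4, MT-CO2, MT-ATP6, MT-ATP8, COA1, COA8, COX19, GABPA, ESRRA, NRF1 and SDHB fall outside that rule and were chosen after their values were seen. Members, lists and alternatives were chosen with earlier results of these data known. Promoters are from RefSeq (GRCh38.p14), coding lengths and pseudogene names from GENCODE. Many members have pseudogenes or close paralogs, among which reads may have been split.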

Additional observations from a re-analysis of the deposited data

How the results depend on the processing

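Of 735 refits of single members under the 18 alternatives, 688 kept the side of the threshold and did not reverse a called direction, 28 lost a call and 16 gained one. In 3 the sign of an uncalled member turned and it was called higher, all without the 3 libraries with erythroid transcripts, with log2 fold changes of 0.32 (UQCR11), 0.41 (COX5B) and 0.81 (ATP5ME). Called in every alternative were 6 members, UQCRC2, UQCRH, COX7A2, COX7A2L, COX6B1 and ATP5PF. With every library rescaled to the same total, 5 members were higher and 2 lower, with 2 higher in complex IV and 1 in ATP synthase. Rescaling to the same total without mitochondrially encoded genes gave 6 higher, with 3 in complex IV and 1 in ATP synthase. Without the 3 libraries with erythroid transcripts 21 were higher, 10 of them in ATP synthase, and array weights gave 8 higher in ATP synthase. Leaving out each library in turn gave 11 to 17 members higher and 1 lower, with 3 in complex III, 4 to 5 in complex IV and 4 to 9 in ATP synthase. The 9 came without parental replicate 3. With the replicate block 11 were higher and 2 lower, COX6C and ATP5MC1 losing the call and ATP5IF1 gaining it. Deviations of same-numbered libraries correlated at 0.329, 0.121 and -0.273. Those of differently numbered libraries ran from -0.467 (parental replicate 1 with sphere replicate 2) to 0.341 (parental replicate 3 with sphere replicate 2). The numbers were therefore not taken to pair libraries. Other pseudocounts and filters changed no call among the members tested. The cause of these changes was not tested.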

Other observations

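Class and annotation were set side by side for the 38 members with a mean of at least 5 units. Call and class both depend on the spread within groups, so they are not separate traits. The 13 called members with compact replicates had coding lengths of 189 to 1659 nt (median 357) in GENCODE release 29, and 12 of them had at least 1 pseudogene named after them. The 17 uncalled members that stood apart in single libraries had coding lengths of 153 to 822 nt (median 318), and 9 of them had such a pseudogene. The 7 uncalled members with compact replicates had coding lengths of 174 to 1587 nt (median 504), and 3 had one. COX6C had 17 such pseudogenes, the most of any member, and its libraries agreed within 1.09-fold in sphere cells and 1.06-fold in parental cells. COX6A1 had 2 and COX5B had 6.

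The order in which parental replicates 2 and 3 lie above parental replicate 1, and sphere replicate 2 above sphere replicates 1 and 3, held in 14 of the 41 members, against 16.7% of all tested genes. By complex it held in 3 of 10 (III), 6 of 13 (IV) and 5 of 18 (ATP synthase). Among 37 nuclear complex I subunits it held in 16. This order was chosen after the data were seen and is given as a description. SDHB, the iron-sulfur subunit of complex II, was at 329, 309 and 302 units in sphere libraries, against 293, 724 and 359 units in parental libraries, and was the only complex II subunit not called.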
